A study of Mus musculus with 18 samples.

Results

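The comparison described here is CYC065 against vehicle in sorted diploid (2N) cells, which covers 6 of the 18 samples of the series. They are the samples whose labels give the cells as 2N, 3 treated with CYC065 and 3 with vehicle. ED1SQ4 is a murine lung cancer cell line, so every group comes from the same line. The paper gives the origin of this line as transgenic mice that overexpress cyclin E. Cells were exposed for 72 hours to vehicle or to 0.5 µM CYC065 (fadraciclib), an inhibitor of the cyclin-dependent kinases CDK2 and CDK9. Cells were then sorted by their DNA content into 2N and polyploid (4N) populations, and unsorted cells of each treatment were also profiled. Total RNA depleted of ribosomal RNA was sequenced from each population, and the level of every annotated gene was given as an estimated read count.

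CDK2, with cyclin E or cyclin A, phosphorylates the retinoblastoma family of pocket proteins. E2F factors are thereby released and drive the genes of DNA replication. CDK9 is the kinase of P-TEFb, which frees paused RNA polymerase II for elongation, and transcripts of short half-life are known to depend on it most. A cell with 2N DNA content is in G1, has left the cycle, or has only begun to copy its DNA. Mitotic genes are repressed in resting cells by the DREAM complex, which holds a pocket protein of the p107 or p130 kind.

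The 3 replicates of each group bear 1 library number in their labels. Their counts over genes with whole-number values scattered as sampling of 1 library would, with a chi-square per degree of freedom of 0.999 in the vehicle and 1.00 in the CYC065 2N columns. Over genes with fractional values it was 6.60 (2104 genes, vehicle) and 8.85 (2167 genes, CYC065), more than sampling gives. The 3 columns were summed, and each group is therefore 1 library. No spread between cultures was measured, no P value is given, and intervals at 95% (exact conditional binomial) cover counting error only. For genes with fractional values these intervals may be too narrow. The summed libraries held 57877352 (vehicle) and 54750203 (CYC065) counts. The long noncoding transcript Gm26917 stood at 22158 CPM in vehicle and 62920.3 CPM in CYC065, and mitochondrial transcripts took 0.380% of the vehicle and 0.701% of the CYC065 counts. Whether these shares bear on the other values was not tested.

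The labelled tissue, lung, was checked against marker genes. Epcam, the epithelial adhesion molecule, and Nkx2-1, the lung lineage factor, had 0 counts in both 2N libraries. The 6 epithelial markers summed to 0.988 CPM (counts per 1000000 of the scaled library) in vehicle and 1.60 CPM in CYC065, and each of them was under 1 CPM in both. Of the 6 alveolar markers, 5 were under 1 CPM and the lipid transporter Abca3 accounted for the rest. The 6 mesenchymal markers, Vim and Fn1 among them, summed to 17804 and 16725 CPM. The 6 immune markers summed to 1.36 and 1.40 CPM, and the 4 endothelial markers to 1.22 and 1.35 CPM. The 6 epithelial markers were thus at or near 0 in these cells, and the mesenchymal markers were abundant. Not every epithelial gene was silent. Of a wider list of 30 epithelial junction and keratin genes, 7 had enough counts. Their median level was 56.4 CPM of the library total in vehicle and 26.4 in CYC065. These are medians of levels and not the change of the genes. The median log2 fold change of the 7 was -0.22, and 2 of them were at least 2-fold lower, 0 higher and 5 neither.

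The DNA-content labels were checked with mitotic genes, which peak in cells with 4N content. Ccnb1 (cyclin B1) stood at 102 CPM of the library total in vehicle 2N and 185 in vehicle 4N cells. After CYC065 it stood at 39.9 in 2N and 115 in 4N cells. The median of the 14 mitotic kinesins was higher in 4N than in 2N cells by 0.52 (log2) under vehicle and by 1.20 after CYC065, beside medians near 0 over all genes in the sorted libraries. The 2N libraries were the lower of each 2N and 4N pair for these genes. Against unsorted cells this did not hold throughout. The median mitotic kinesin was at 65.0 CPM of the library total in vehicle 2N and 79.1 in unsorted vehicle cells. After CYC065 it was at 28.7 in 2N and 26.7 in unsorted cells. How pure the 2N gate was cannot be read from these values.

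A gene was taken as changed when its scaled level differed by at least 2-fold between the libraries and the higher library held at least 100 counts. The words rose and fell are kept for such genes. Of 11991 genes with enough counts, 1555 rose (13.0%) and 1330 fell (11.1%) with CYC065 in 2N cells, and the median log2 fold change was -0.02. The counting interval lay wholly beyond 2-fold for 1205 of the rises and 1043 of the falls. Changes of 8-fold or more were found for 137 genes upward and 19 downward. The excess of rises lay among genes of low level. In the quintile of protein-coding genes of lowest mean level 26.1% rose and 12.8% fell. In the quintile of highest mean level 6.36% rose and 9.51% fell. The cause of this difference was not tested. The balance of rises and falls depends on scaling, since trimmed-mean (TMM) factors taken over all listed genes, an alternative chosen after seeing the data, moved the median to -0.15 and gave 1291 rises and 1743 falls.

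**Figure D1:**
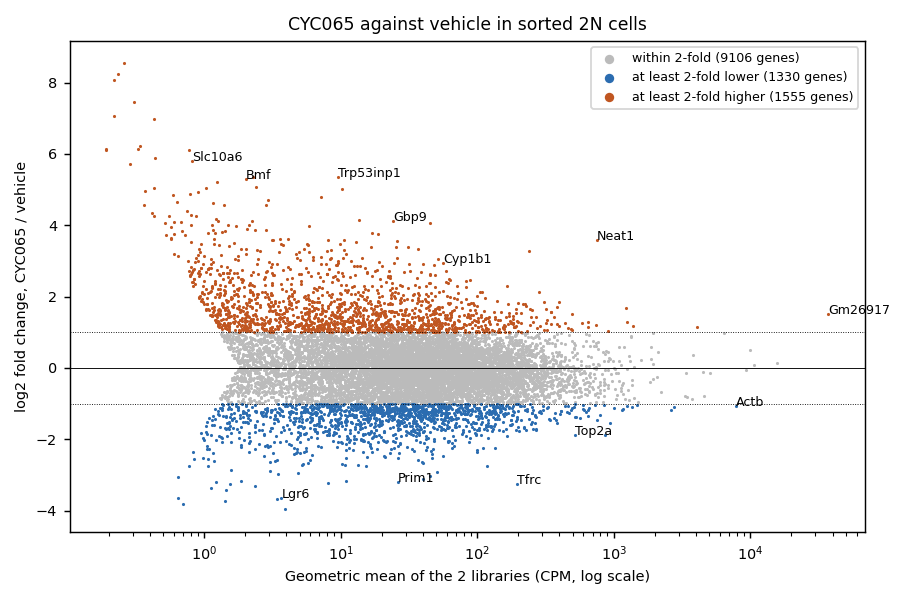
Each point is 1 of 11991 genes, with the geometric mean level of the vehicle and CYC065 2N libraries (CPM, log axis) against the log2 fold change. Orange points are the 1555 genes at least 2-fold higher and blue points the 1330 at least 2-fold lower, and dotted lines mark 2-fold. The highest folds lie at low levels, while Tfrc, Top2a and Neat1 changed at high levels.

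The genes of largest change were taken among protein-coding genes with at least 300 counts and little sequence shared with other genes. Tfrc, the transferrin receptor that brings iron into the cell, had 11543, 11430 and 11189 counts in the vehicle columns. It had 1153, 1130 and 1153 in the CYC065 columns. Tfrc fell by 3.27 on the log2 scale (interval -3.32 to -3.22), a 9.62-fold lower level. The columns of a group, here and below, are parts of 1 library, so their closeness is not replication. Prim1, the catalytic subunit of DNA primase, fell from 79.3 to 8.66 CPM, and Tk1, the thymidine kinase of S phase, from 130 to 15.8 CPM. Abcb1b, a P-glycoprotein drug efflux pump, fell from 118 to 13.5 CPM, and its paralog Abcb1a from 14.3 to 6.74 CPM. Lgr6, an R-spondin receptor of the Wnt pathway, fell from 13.0 to 1.04 CPM, and Col5a3, a collagen V chain, from 12.1 to 0.948 CPM. Tnnt2 (cardiac troponin T), Ankle1 (a nuclease), Tmem238 and Gm45716 complete the 10 largest falls, which run from -2.94 to -3.96 on the log2 scale.

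The 10 largest rises ran from 4.57 to 5.79 on the log2 scale. Trp53inp1, a p53-induced protein active in autophagy and cell death, had 25, 31 and 29 counts in the vehicle columns. It had 1111, 1147 and 1128 counts in the CYC065 columns, with a log2 fold change of 5.35 (interval 5.05 to 5.69). Bmf, a BH3-only activator of apoptosis, went from 18 to 702 counts. Ypel2 rose from 1.78 to 58.0 CPM. Lrrc32, the surface receptor GARP that presents latent TGF-β, rose from 1.38 to 38.1 CPM. Aldh1l1, a folate enzyme, rose from 0.582 to 14.1 CPM. The others were Slc10a6, Tcp11l2, Mroh2a, Angptl7 and Fbxo36. Most of these genes were nearly silent in vehicle cells, as 7 of the 10 stood under 1 CPM there.

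**Figure D2:**
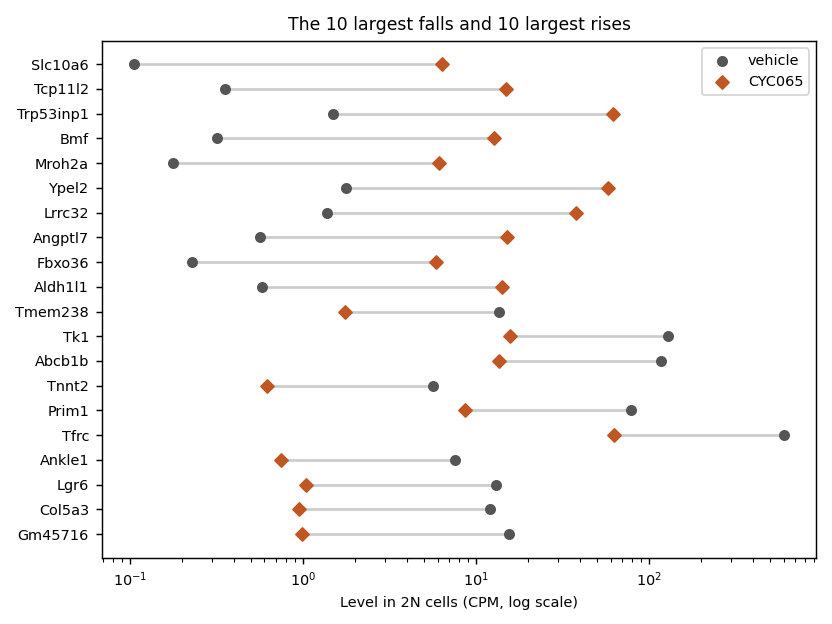
Levels (CPM, log axis) of the 10 genes of largest fall and the 10 of largest rise in the vehicle (circles) and CYC065 (diamonds) 2N libraries, with 1 library per point. Tfrc fell from 603 to 62.7 CPM, while most genes of the rising group started below 1 CPM.

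Most genes of DNA replication fell. Of 50 measured, 35 fell, 0 rose and 15 did neither, with a median of -1.35 beside -0.02 for all genes. Rrm2, a ribonucleotide reductase subunit that supplies nucleotides, stood at -2.36. Mcm2, a subunit of the replicative helicase, fell from 226 to 71.1 CPM, the sliding clamp Pcna from 388 to 161 CPM, and the licensing factor Cdc6 from 77.5 to 27.6 CPM. Of 20 genes of purine and pyrimidine synthesis, 7 fell and 0 rose (median -0.89). Among them were Pfas and Gart of the purine route and Umps and Cad of the pyrimidine route, at -1.97, -1.80, -1.71 and -1.67.

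The E2F-binding letters TTTCCCGC, TTTCGCGC, TTTGCCGC and TTTGGCGC were looked for on both strands of RefSeq promoter windows (GRCm38.p6, 250 bases before to 50 after a gene's start). At least 1 occurred in 16 of 49 windows of the replication genes (32.7%), which belong to 41 of the 50 genes, against 2.26% of all 32851 windows and 4.21% of the 11488 windows of genes with enough counts. The share in the list does not depend on how its genes changed. Split by call over all genes, the letters were in 8.03% of the windows of genes that fell, 2.45% of those that rose and 3.98% of the others. The 2 windows below are shown because they belong to replication genes that fell and hold these letters, which are in capitals. That of Mcm5 (log2 fold change -1.83) is chr8:75109259-75109558 (plus strand), where overlapping matches begin at -153 and -149. That of Uhrf1 (-1.69), which recruits DNA methylation to copied DNA, is chr17:56304063-56304362 (plus strand).
Mcm5: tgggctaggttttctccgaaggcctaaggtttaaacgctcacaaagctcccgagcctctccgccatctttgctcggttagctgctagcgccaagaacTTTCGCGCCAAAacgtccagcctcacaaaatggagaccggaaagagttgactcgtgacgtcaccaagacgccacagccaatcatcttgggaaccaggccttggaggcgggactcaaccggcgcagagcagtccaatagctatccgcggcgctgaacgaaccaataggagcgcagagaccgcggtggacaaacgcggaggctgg
Uhrf1: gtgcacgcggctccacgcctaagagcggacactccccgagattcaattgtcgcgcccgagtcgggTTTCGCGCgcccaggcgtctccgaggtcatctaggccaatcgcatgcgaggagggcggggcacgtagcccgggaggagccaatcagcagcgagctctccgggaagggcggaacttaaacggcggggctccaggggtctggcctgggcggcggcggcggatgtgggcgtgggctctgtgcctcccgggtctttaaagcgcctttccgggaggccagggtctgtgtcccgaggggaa

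The E2F genes themselves fell in part. Of 10 measured, 5 fell and 0 rose. E2f7 and E2f8, atypical repressors, fell by 1.71 and 1.51 on the log2 scale, and the activators E2f1 and E2f2 by 1.32 and 1.38. Among 19 G1 cyclins, kinases and inhibitors, 4 fell and 5 rose. Rbl1 (p107) fell from 108 to 20.5 CPM, while Rbl2 (p130), the pocket protein of resting cells, rose from 19.1 to 48.4 CPM. Ccnd1 (cyclin D1) and Cdk4 fell to 268 and 122 CPM from 624 and 287 CPM. Cdkn1b (p27) rose from 29.3 to 95.3 CPM, Cdkn2a from 110 to 274 CPM and Cdkn2b (p15) from 19.4 to 42.4 CPM, and Ccng2, a cyclin linked to cell cycle exit, from 14.2 to 67.7 CPM. Cdkn1a (p21) was at 28.2 and 23.7 CPM. The genes of the drug targets did not pass 2-fold, with Cdk2 at 54.1 and 29.9 CPM and Cdk9 at 64.0 and 76.9 CPM. Nor did Ccne1, which encodes a cyclin E partner of CDK2, at 54.6 and 30.3 CPM.

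Mitotic genes were lower as well, although the cells had been gated on 2N DNA content. Of 24 mitotic kinases and entry factors 18 fell, of 38 kinetochore and checkpoint genes 25, of 26 spindle assembly genes 15, of 21 cytokinesis genes 12, of 14 mitotic kinesins 10, and of 11 condensin and topoisomerase genes 8. The medians lay between -1.13 and -1.35, and in these 6 lists 1 gene rose, Tacc1, from 37.4 to 207 CPM. Mybl2 and Foxm1, factors that switch on mitotic genes, fell to 29.9 and 50.9 CPM from 142 and 188 CPM. Top2a, which untangles sister chromatids, fell from 1001 to 271 CPM and the proliferation marker Mki67 from 628 to 228 CPM. Kif11, the motor that separates spindle poles, fell by 1.73 on the log2 scale, Cdk1 by 1.45, Plk1 by 1.44 and Ccnb1 by 1.39. In bulk libraries, fewer cells of a kind and less RNA per cell cannot be told apart.

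The letters TTTGAA, the core of the cell cycle genes homology region (CHR) to which MuvB complexes such as DREAM bind, occurred on either strand in 56 of 114 promoter windows of the 6 mitotic lists (49.1%). They occurred in 17.9% of all windows and 11.8% of those of genes with enough counts, and 100 of the 126 listed genes had a window. The letters CCAAT, the NF-Y element often found near the CHR, were in 64.9% of the mitotic windows and 37.4% of all windows. Over all genes, TTTGAA was in 16.2% of the windows of genes that fell, 10.2% of those that rose and 11.4% of the others. CCAAT was in 40.8%, 43.6% and 37.1% of these windows, and so was not more frequent among genes that fell than among those that rose. Shown are the 2 mitotic genes of largest fall among those with the letters, which stand in capitals close to the start. The window of Cenpn, a centromere protein that fell from 22.7 to 5.22 CPM, is chr8:116921490-116921789 (plus strand) with the match at -9. That of Iqgap3, a scaffold protein of dividing cells that fell from 126 to 30.6 CPM, is chr3:88081801-88082100 (plus strand) with the match at -19. On the printed strand both read as the reverse complement.
Cenpn: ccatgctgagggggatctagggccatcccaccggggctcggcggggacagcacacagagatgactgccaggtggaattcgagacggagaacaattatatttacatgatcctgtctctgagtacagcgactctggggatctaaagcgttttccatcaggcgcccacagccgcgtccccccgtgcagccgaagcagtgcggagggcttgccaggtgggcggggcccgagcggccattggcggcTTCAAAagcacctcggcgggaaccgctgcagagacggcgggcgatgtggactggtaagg
Iqgap3: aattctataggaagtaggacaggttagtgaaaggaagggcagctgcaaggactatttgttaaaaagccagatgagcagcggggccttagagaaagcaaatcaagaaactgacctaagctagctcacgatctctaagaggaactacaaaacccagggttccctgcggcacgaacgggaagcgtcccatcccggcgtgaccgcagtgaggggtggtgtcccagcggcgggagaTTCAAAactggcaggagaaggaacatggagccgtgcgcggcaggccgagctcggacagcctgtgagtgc

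Of 37 genes of homologous recombination and the Fanconi pathway 21 fell and 0 rose, with a median of -1.15. Fanca and Fancd2 fell from 50.6 and 38.5 CPM to 8.88 and 7.51 CPM. Atm, the kinase that senses double-strand breaks, fell from 126 to 29.8 CPM. Replication-dependent histones fell in 45 of 61 cases (median -1.31) and 1, Hist2h2be, rose, while 9 more of the 70 listed were under the count minimum. A median of 52.3% of their 50-base words occur in other genes, so reads may be split among copies. The median over members with little shared sequence was -0.87.

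Genes that build ribosomes fell in 27 of 38 cases, with a median of -1.17 and 0 rises. Nop16 and Rrp12, assembly factors, fell from 33.4 and 103 CPM to 6.47 and 20.3 CPM, the snoRNP proteins Nhp2 and Dkc1 to 31.5 and 55.9 CPM, and nucleolin (Ncl) from 1244 to 457 CPM. The ribosomal proteins themselves stood apart from their builders, as 1 of 83, Rpl7l1, fell and 0 rose (median -0.35). Of 49 mitochondrial ribosomal genes of the Mrpl stem 15 fell and 0 rose, of 14 Timm import genes 6 fell, and of 19 nucleoporins of the Nup stem 8 fell. Respiratory chain subunits of nuclear origin scarcely moved, with 2 falls among 78, those of the cytochrome c genes Cycs and Cyc1, and a median of -0.10. The 15 measured transcripts of the mitochondrial genome were all above 0 on the log2 scale, 3 of them (mt-Co2, mt-Co3 and mt-Rnr2) risen, with a median of 0.75.

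Splicing factors of the SR family fell in part. Srsf1, Srsf2, Srsf3 and Srsf9 fell by 1.73, 1.47, 1.20 and 1.12 on the log2 scale, and the SR protein kinase Clk1 rose by 1.11 (of 16 genes 5 fell and 1 rose). Among 28 genes of P-TEFb and its regulators, 1 fell and 2 rose. Hexim1 and Hexim2, which hold P-TEFb inactive on the 7SK RNA, rose from 37.1 to 80.1 CPM and from 1.57 to 5.45 CPM. The fall was Nelfe, a subunit of the pausing factor NELF, from 44.3 to 10.4 CPM. Polr2a, the large subunit of RNA polymerase II, stood at 494 and 315 CPM. The paraspeckle RNA Neat1 rose from 218 to 2594 CPM (log2 3.57, interval 3.55 to 3.60), whereas Malat1, its genomic neighbour, stood at 5307 and 4786 CPM.

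Of 30 actin and SRF-dependent contractile genes, 12 fell, 0 rose and 18 did neither (median -0.82). Tgfb1i1 (Hic-5), a focal adhesion protein, fell from 98.5 to 15.8 CPM and Tpm2 (β-tropomyosin) from 112 to 19.6 CPM. Actb (β-actin) fell from 11327 to 5408 CPM, and Acta2 (smooth muscle actin) from 737 to 304 CPM. Srf itself fell from 161 to 63.8 CPM. Of 13 tubulins 6 fell and 7 did neither, with Tubb6 falling from 419 to 125 CPM. Among 7 measured genes of EGFR and its ligands 4 fell and 1 rose, with Hbegf at -1.42, Areg at -1.40, Btc at -1.33 and Ereg at -1.14 on the log2 scale, and with the related ligand gene Nrg1, which signals through ERBB3 and ERBB4, rising by 1.01. The TGF-β ligand gene Tgfb2 rose from 11.5 to 47.3 CPM.

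On the rising side, genes linked to FoxO factors and quiescence rose in 15 of 22 cases with 0 falls (median 1.36). FoxO factors enter the nucleus when insulin and AKT signalling is low. Fbxo32 (atrogin-1), a ubiquitin ligase, rose from 2.97 to 33.3 CPM, the pseudokinase Trib2 from 23.1 to 152 CPM and Pik3ip1, an inhibitor of PI3-kinase, from 3.14 to 15.2 CPM. Klf15 had 6 counts in vehicle and 180 in CYC065. Txnip, often counted with these genes, stood at 195 and 119 CPM. In the Myc network, the Myc antagonists Mxd4 and Mxd1 rose by 2.91 and 1.92 on the log2 scale, Mxd3, expressed in S phase, fell by 1.85, and Myc itself stood at 146 and 253 CPM.

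Lysosomal and autophagy genes rose in 19 of 42 cases with 0 falls (median 0.94). Lipa, the acid lipase, rose from 17.1 to 83.2 CPM, Gla, the α-galactosidase, from 24.4 to 98.9 CPM, the protease Ctsd from 211 to 691 CPM, and Map1lc3b, the autophagosome protein LC3B, from 42.0 to 161 CPM. Glb1, the β-galactosidase used as a senescence marker, rose by 1.33 on the log2 scale (interval 1.22 to 1.44). The letters TCACGTG, part of the element that TFEB and its relatives bind in lysosomal genes, occurred in 10 of 41 windows of this list (24.4%), which belong to 35 of 45 genes. They occurred in 3.77% of all windows and 6.11% of those of genes with enough counts. Over all genes, TCACGTG was in 5.73% of the windows of genes that rose, 5.19% of those that fell and 6.31% of the others. It was thus not more frequent among genes that rose than among those that did neither. The letters contain the E-box CACGTG. TCACGTGA reads alike on both strands and so holds a match on each. The windows of Gla, chrX:134600956-134601255 (minus strand), and Ctsd, chr7:142387778-142388077 (minus strand), are shown as the members of largest rise that hold the letters, in capitals.
Gla: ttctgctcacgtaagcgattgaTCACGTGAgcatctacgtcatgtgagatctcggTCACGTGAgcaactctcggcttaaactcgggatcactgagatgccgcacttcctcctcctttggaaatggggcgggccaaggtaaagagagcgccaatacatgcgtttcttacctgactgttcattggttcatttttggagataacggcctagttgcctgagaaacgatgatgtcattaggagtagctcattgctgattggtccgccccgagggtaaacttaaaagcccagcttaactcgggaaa
Ctsd: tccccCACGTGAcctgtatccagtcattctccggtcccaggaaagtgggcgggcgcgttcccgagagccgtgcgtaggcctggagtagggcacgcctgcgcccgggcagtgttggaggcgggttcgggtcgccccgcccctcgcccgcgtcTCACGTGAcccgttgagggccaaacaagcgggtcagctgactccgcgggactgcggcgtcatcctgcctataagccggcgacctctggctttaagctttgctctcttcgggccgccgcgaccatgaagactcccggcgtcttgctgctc

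Of 23 genes of cholesterol synthesis 14 rose and 0 fell, with a median of 1.25, and 22 of the 23 were above 0. The exception, Mvk (mevalonate kinase), named after its value was seen, stood at -0.71. Hmgcs1, an early enzyme of the route, had 564, 619 and 613 counts in the vehicle columns. It had 2888, 2876 and 2861 counts in the CYC065 columns, a 4.96-fold rise (log2 2.31, interval 2.24 to 2.38). Insig1, which retains the sterol sensor in the endoplasmic reticulum, rose from 26.7 to 119 CPM and Fdft1 (squalene synthase) from 22.1 to 93.9 CPM. In fatty acid synthesis 5 of 17 genes rose and 0 fell, among them the desaturases Scd1 and Scd2. The letters TCACNCCAC, a sterol response element, were found in 1 of 20 windows of the cholesterol genes, that of Hmgcs1 at chr13:119690101-119690400 (plus strand), and in 1.24% of all windows. It is shown because the gene has the largest rise of the list.
Hmgcs1: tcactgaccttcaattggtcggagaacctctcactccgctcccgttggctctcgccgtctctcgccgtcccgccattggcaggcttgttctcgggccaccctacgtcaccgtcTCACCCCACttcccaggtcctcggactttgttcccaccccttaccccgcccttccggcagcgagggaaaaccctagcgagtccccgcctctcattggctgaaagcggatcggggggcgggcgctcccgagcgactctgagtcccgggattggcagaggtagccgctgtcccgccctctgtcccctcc

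Guanylate-binding proteins and immunity-related GTPases, interferon-induced proteins that attack vacuoles of intracellular microbes, rose in 10 of 11 measured cases with a median of 2.91. Of the 20 listed, 18 were found in the table and 7 of these had too few counts. Gbp9 rose from 5.84 to 101 CPM, and its columns ran from 101 to 119 counts in vehicle and from 1793 to 1883 in CYC065. Gbp11 went from 2 to 297 counts (interval 5.40 to 10.31 on the log2 scale), Gbp7 from 20 to 282 and Gbp8 from 5 to 108. Gbp11, Gbp7 and Gbp8 reached the count minimum only in the CYC065 library, so they could enter only as higher. The count of rises and the median of this list therefore lean upward. The list median was 1.62 in 4N and 2.61 in unsorted cells. Of 32 other interferon-stimulated genes 13 rose and 1 fell (median 0.71). Irf7, a factor that amplifies the interferon response, rose from 0.406 to 2.86 CPM and the ubiquitin-like Isg15 from 0.547 to 3.50 CPM, low levels throughout. Antigen presentation by MHC class I had 1 rise among 19 genes, the immunoproteasome subunit Psmb9.

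The interferon-stimulated response element, searched as GAAA followed after any 2 bases by GAAA, occurred on either strand in 10 of 11 windows of the GTPase list (90.9%), which belong to 10 of its 18 genes, and in 21 of 48 windows of the other interferon-stimulated genes (43.8%). It was in 3.44% of all windows and 2.94% of those of genes with enough counts. The shares in the 2 lists do not depend on how their genes changed. Split by call over all genes, the element was in 4.47% of the windows of genes that rose, 2.43% of those that fell and 2.76% of the others. The windows of Gbp7, chr3:142530086-142530385 (plus strand), and Tgtp2, a T-cell-specific GTPase that rose by 2.84 on the log2 scale, chr11:49064163-49064462 (minus strand), are shown for this match, in capitals.
Gbp7: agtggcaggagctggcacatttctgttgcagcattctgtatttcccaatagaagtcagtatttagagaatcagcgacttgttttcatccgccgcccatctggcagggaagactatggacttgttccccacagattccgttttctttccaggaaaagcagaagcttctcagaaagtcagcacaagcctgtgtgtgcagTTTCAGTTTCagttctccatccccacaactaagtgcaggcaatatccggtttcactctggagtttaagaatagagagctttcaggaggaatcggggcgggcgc
Tgtp2: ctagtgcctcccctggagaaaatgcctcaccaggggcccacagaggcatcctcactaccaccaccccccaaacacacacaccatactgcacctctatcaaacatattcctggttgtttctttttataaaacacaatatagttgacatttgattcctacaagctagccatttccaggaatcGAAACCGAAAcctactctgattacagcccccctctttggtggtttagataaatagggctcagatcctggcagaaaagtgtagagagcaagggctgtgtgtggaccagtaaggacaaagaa

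Immediate early genes rose in 18 of 32 cases and fell in 2 (median 1.14). Fos rose from 18.4 to 111 CPM, the orphan receptor Nr4a1 from 18.1 to 111 CPM, Zfp36, which marks such transcripts for decay, from 9.25 to 54.1 CPM and Egr1 from 128 to 310 CPM. The falls were Fosl1 (from 235 to 69.4 CPM) and Srf. In the circadian clock 10 of 16 genes rose and 0 fell (median 1.28), with Per1 at 1.95, Per2 at 1.88, Dbp at 1.70 and Hlf at 2.55 on the log2 scale. The activators Arntl (BMAL1) and Clock, named after their values were seen, stood at -0.88 and -0.77.

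Stress pathways were mixed. Of 28 p53 targets 10 rose and 2 fell (median 0.32). Gadd45a rose from 3.60 to 30.5 CPM and Ddit4, an inhibitor of mTORC1, from 4.55 to 62.4 CPM, while the classic targets Cdkn1a and Mdm2 stood within 2-fold, at -0.25 and 0.12 on the log2 scale. Of 12 BCL2 family genes 3 rose, 1 fell and 8 did neither (median -0.06). The BH3-only genes Bmf, Bbc3 (PUMA) and Bcl2l11 (BIM) rose by 5.29, 1.70 and 1.47, the survival gene Bcl2l2 fell by 1.08, and Mcl1 and Bcl2 stood at -0.10 and -0.09. The BH3-only genes Bad and Bid, named after their values were seen, stood at 0.13 and -0.03. Of 28 ATF4 and amino acid response genes 13 rose and 0 fell (median 0.57), with Slc7a11, the cystine transporter, at 3.18. Atf4 itself stood at 494 and 262 CPM. Of 29 NRF2 targets 12 rose and 1 fell (median 0.43), with Hmox1 (heme oxygenase) rising from 19.6 to 102 CPM. Several genes belong to more than 1 list, such as Ddit4 and Slc7a11.

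Xenobiotic and metal handling was mixed. Of 7 drug efflux transporters 2 fell, Abcb1a and Abcb1b, and 1 rose, Abcc5 (median -0.46). Of 5 aryl hydrocarbon receptor genes 4 rose, with Cyp1b1 from 20.3 to 157 CPM, Aldh3a1 from 35.8 to 192 CPM and Ahr itself from 28.6 to 93.3 CPM. Over the whole Cyp stem, 8 of 15 genes rose and 1 fell. Of 4 genes of metallothioneins and the zinc response 2 rose and 0 fell. They were Mt1 and Mt2, which bind zinc and rose from 34.9 to 151 CPM and from 11.7 to 118 CPM. Of 13 aldehyde dehydrogenases 6 rose and 0 fell (median 0.88). Of 24 heat shock chaperone genes 5 rose, 2 fell and 17 did neither (median 0.13). Hspa1a and Hspa1b rose by 2.59 and 3.09, with 60.3% and 62.3% of words shared with other genes, and Hsp90aa1 and Hspd1 fell to 769 and 514 CPM from 1738 and 1050.2 CPM. Of 37 proteasome genes 1, Psmb9, rose and 1, Psmc4, fell (median -0.48), and of 21 glycolytic genes 3 fell and 1 rose, with Slc16a3, the lactate exporter, at -1.70 and Ldhb at 2.09.

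**Figure D3:**
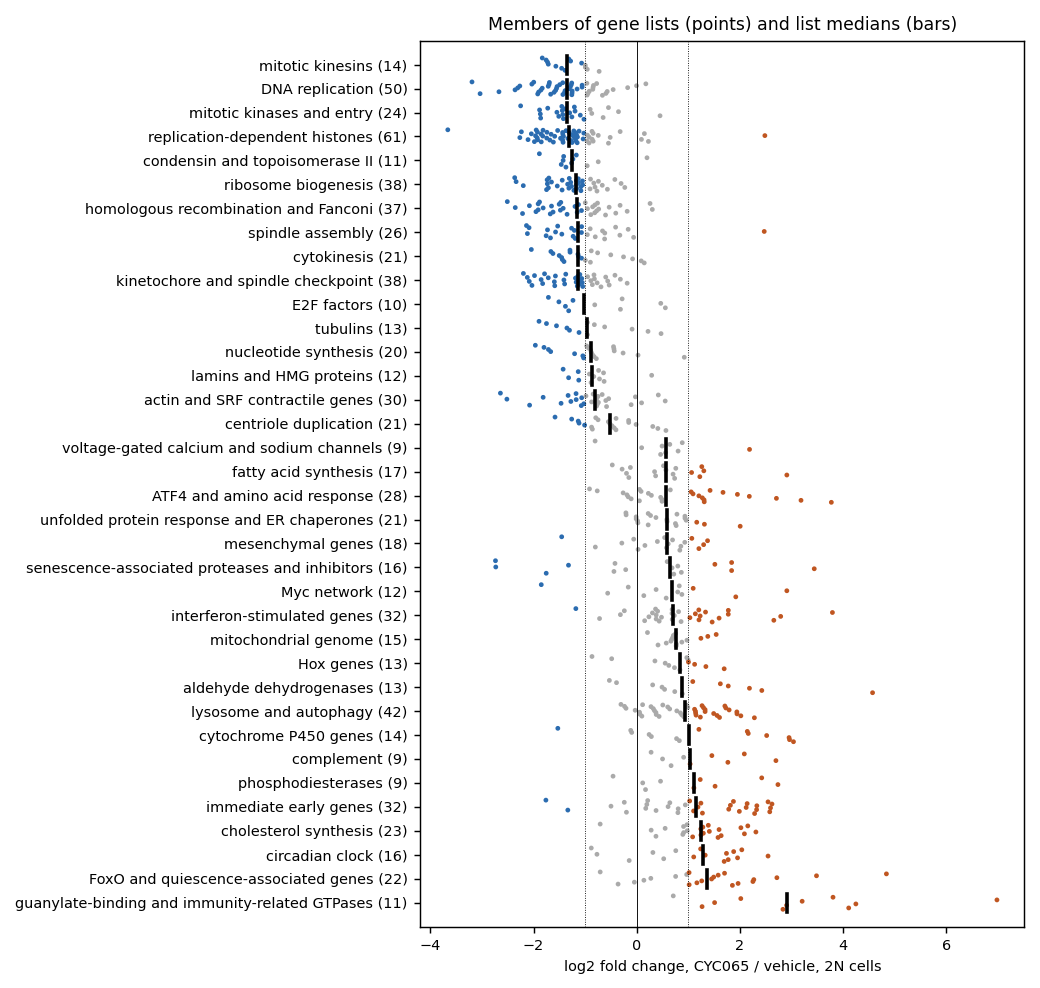
Log2 fold changes in 2N cells of the members of each gene list with at least 9 measured genes and a median of 0.5 or more in size, with the number of genes in parentheses. Points are genes (orange at least 2-fold higher, blue at least 2-fold lower, grey neither) and black bars are medians. The cell cycle and ribosome biogenesis lists lie to the left with almost no orange points, and the guanylate-binding list lies farthest to the right.

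Gene families were also formed by symbol stem, over 124 stems with at least 10 measured genes. In 36 stems 0 genes rose and in 29 stems 0 fell. Over all measured genes 13.0% rose and 11.1% fell, and how many such stems these shares alone would give was not tested. Medians of -0.5 or below were found in 17 stems and of 0.5 or above in 7. Beside those given above, the low end held Srsf, Rad, Polr, Ddx (9 of 32 RNA helicase genes fell, 0 rose) and Eif (11 of 54 initiation factor genes fell, 0 rose). The high end held Ifi, Aldh and Adamts, where 6 of 11 extracellular metalloprotease genes rose and 1 fell. The Zfp stem of zinc finger genes, with 317 measured, had 52 rises and 8 falls and a median of 0.35.

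Calls also varied with the size of a gene. In the quintile of 2218 protein-coding genes of shortest genomic span (0.204 to 8.65 kb), 11.3% rose and 20.3% fell, with a median of -0.28. In the quintile of longest span (68.3 to 4435 kb), 14.1% rose and 4.73% fell, with a median of 0.16. The order held among genes above the median level, where 165 of the 784 shortest and 51 of the 1347 longest genes fell, and among those below it, where 19.9% and 6.20% fell. Without the listed cell cycle, repair, ribosome and respiratory genes, the shares fallen were 19.2% and 4.08%. By biotype, 37 of 134 long intergenic RNAs rose and 20 fell, and 13 of 188 processed pseudogenes rose and 36 fell.

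**Figure D4:**
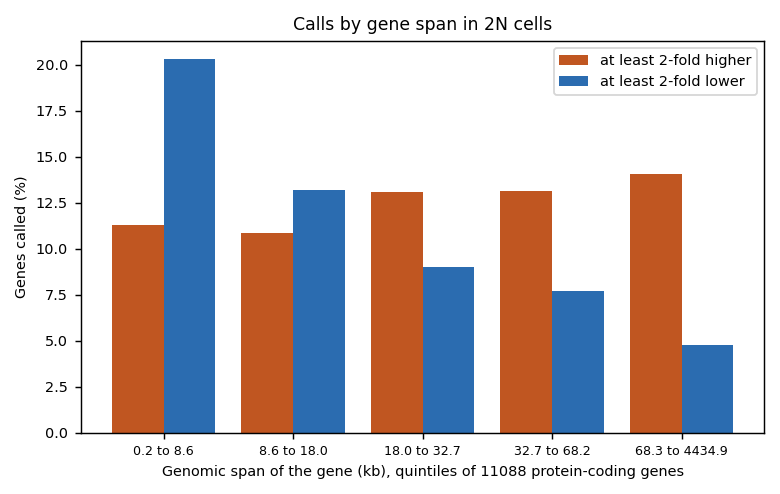
Percent of protein-coding genes at least 2-fold higher (orange) and at least 2-fold lower (blue) with CYC065 in 2N cells, in quintiles of genomic span (kb). The share that fell is 20.3% in the shortest and 4.73% in the longest quintile, while the share that rose stays between 10.9% and 14.1%.

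The same comparison in the other populations gave 1443 genes higher (12.0%) and 1154 lower (9.56%) of 12070 in 4N cells, and 1323 higher (11.0%) and 1434 lower (11.9%) of 12009 in unsorted cells. Scaling by library size alone gave 1068 higher and 1822 lower in unsorted cells. Of the 1555 genes that rose in 2N cells, 1128 also rose in 4N cells (72.5% of the 2N and 78.2% of the 4N rises) and 859 in unsorted cells (55.2% and 64.9%). Of the 1330 that fell, 913 also fell in 4N cells (68.6% and 79.1%) and 923 in unsorted cells (69.4% and 64.4%). The falls of mitotic genes were smaller in the 4N libraries, with medians of -1.35 in 2N and -0.67 in 4N cells for mitotic kinesins and of -1.26 and -0.66 for condensin and topoisomerase genes. Ribosome biogenesis was alike, at -1.17 and -1.09. The Gadd45 family stood at 2.22 in 2N, 0.85 in 4N and 0.34 in unsorted cells. Of 29 NRF2 targets 12 rose in 2N, 6 in 4N and 1 in unsorted cells (medians 0.43, 0.16 and 0.09). In the same order, medians were 0.71, 0.50 and 0.02 for interferon-stimulated genes and 1.78, 1.49 and 0.74 for aryl hydrocarbon receptor genes. The FoxO and quiescence list was alike in each, at 1.36, 1.25 and 1.25. These differences between populations were not tested.

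Some of the genes for which sorted and unsorted cells differed were traced to their levels in each library, in CPM of the library total. The median cholesterol gene was at 26.2 CPM in vehicle 2N, 35.5 in vehicle 4N and 101 in unsorted vehicle cells, and at 79.6, 69.4 and 88.8 CPM in the matching CYC065 libraries. Slc7a11 was at 3.58, 4.35 and 52.6 CPM in vehicle and 33.4, 29.7 and 21.9 CPM after CYC065. Ddit4 was at 4.46, 3.56 and 52.2 CPM in vehicle and 62.5, 49.0 and 96.5 CPM after CYC065. For these genes the sorted vehicle libraries were far below the unsorted vehicle library, while the CYC065 libraries lay closer together. Fos went the other way, at 18.0, 9.20 and 2.07 CPM in vehicle and 111, 54.4 and 29.2 CPM after CYC065. The part of sorting in these values was not tested.

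**Figure D5:**
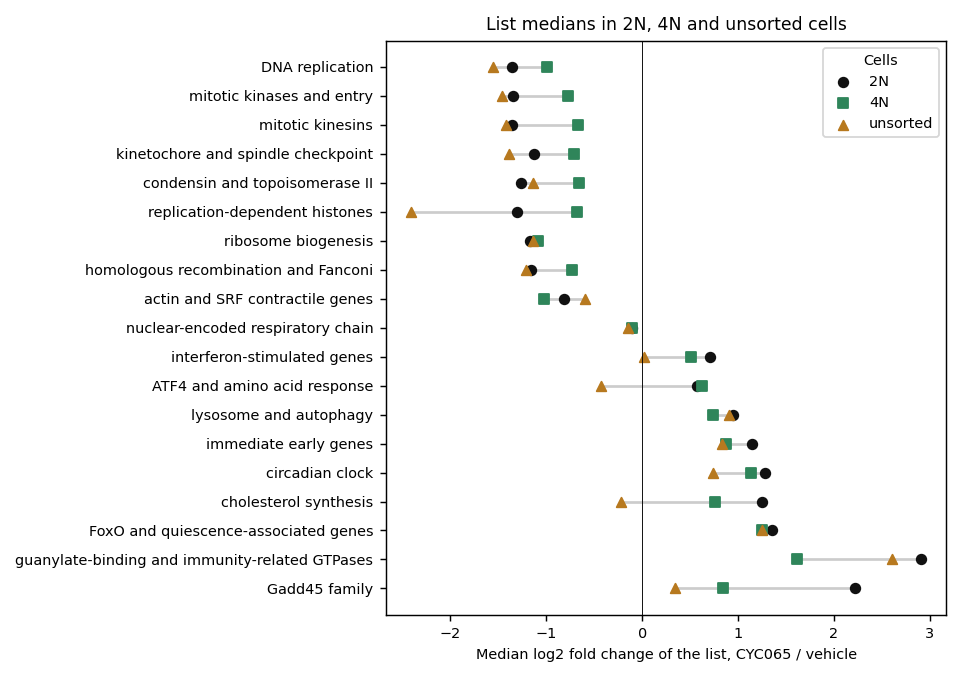
Median log2 fold change of 19 gene lists with CYC065 in 2N (circles), 4N (squares) and unsorted cells (triangles), with grey lines joining the populations. Cell cycle lists lie below 0 in each population, and the cholesterol list is at 1.25 in 2N, 0.76 in 4N and -0.22 in unsorted cells.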

How the data were processed

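Reads were trimmed by the authors (Cutadapt 1.18) and mapped to mm10 in 2 passes (STAR 2.7.0f), and RSEM estimated counts of GENCODE M21 genes (version 1.3.1 in the submitters' processing notes). The deposited values are these expected counts, neither normalized nor filtered, for 55450 genes, 7.99% of which have a fractional value in a 2N column. The 3 columns of a group were summed into 1 library. Library sizes were scaled by TMM over the 4 sorted libraries together, and over the unsorted libraries apart, on genes with at least 100 counts in a library. That minimum for TMM was set after the counts were seen. Fold changes used a prior count of 0.5. A gene entered the comparison if either library held 100 counts or more, and a 2-fold difference was called. A gene low in 1 library therefore entered only if it was high in the other, which favours calls among genes of low level. Column totals in 2N cells ran from 18246493 to 19293775. A gene at the floor of 3 counts in a summed library stands at 0.0530 CPM in vehicle and 0.0547 CPM in CYC065.

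The comparison, the 81 gene lists and their members were chosen with earlier results of these data known. Named genes were the 10 largest changes in each direction (protein-coding, at least 300 counts, under 20% of 50-base words shared with other genes), up to 4 called members of each list in each direction, preset anchor genes, Cdk2, Cdk9, Ccne1 and cell type markers. Some genes are not reported here. Promoter windows were RefSeq's (GRCm38.p6). Coordinates of windows are those of that table. Calculations used R 4.3.3, edgeR 4.0.16, DESeq2 1.42.0, Python 3.11.15, pandas 2.3.3, NumPy 2.4.6 and SciPy 1.17.1. Alternatives covered scaling, count minimum, prior count, tests on the columns, shared sequence, biotype and leaving out each column.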

Additional observations from a re-analysis of the deposited data

Results flagged for a closer look

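The opposite call in 2N cells and in another population was found for a small set of genes. None of these differences was tested. Between 2N and 4N cells it was found for Rpl30-ps9, a pseudogene with 97.6% of its 50-base words in other genes, at -2.98 in 2N and 1.62 in 4N cells (log2).

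Between 2N and unsorted cells, 10 genes rose in 2N and fell in unsorted cells. Slc7a11, the cystine transporter, was at 3.18 in 2N and -1.12 in unsorted cells. Trib3 was at 1.95 and -1.08 and Chac1 at 1.27 and -1.83, both targets of ATF4. Atoh8 was at 1.23 and -1.13, Eps8l2 at 1.41 and -1.06, and Lhx1 at 1.24 and -1.01. Casp1, the inflammatory caspase, was at 2.09 and -1.01. Prl2c2 (proliferin) was at 1.26 and -2.03, Gm10705 at 3.08 and -1.87 and Gm6710 at 2.03 and -1.69, with 83.3%, 85.4% and 92.1% of their words shared. The snRNA gene Gm24497 went the other way, at -1.42 and 2.10.

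In 3 lists the medians in 2N and unsorted cells had opposite signs and were both at least 0.2 in size. They were 0.57 and -0.42 for the ATF4 and amino acid response, 1.25 and -0.22 for cholesterol synthesis, and 0.82 and -0.21 for 6 fetal and oncofetal growth genes.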

How the results depend on the processing

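The 2885 genes at least 2-fold apart in 2N cells became 11613 (8247 higher, 3366 lower) with no filter on low counts, and 3885 with at least 30 counts, of which 2356 were higher. The other alternatives gave between 2248 (counting interval wholly beyond 2-fold) and 3034 (TMM over all listed genes, added after seeing the data). That scaling and DESeq2 size factors (1367 higher, 1595 lower) turned the balance of rises and falls, as did the minimum of 300 counts (1147 higher, 1179 lower). Leaving out each column number gave 2668 to 2684, with 11431 to 11440 genes past the count minimum in place of 11991. Treating columns as samples, edgeR's quasi-likelihood test (adjusted p below 0.05 and 2-fold) gave 2879 without and 2881 with a replicate block. The columns of a block share only a number. Since the columns of a group are parts of 1 library, tests on them and leaving 1 out cannot check the calls against other cultures. DESeq2 gave 2862, and an assumed coefficient of variation of 0.2 gave 2510. Library size scaling gave 2593 in 4N and 2890 in unsorted cells, where it moved the median from 0.00 to -0.15. Of 78 list medians, 40 were 0.5 or more in size, and 39 to 42 under the alternatives. Signs changed in 4 lists with a minimum of 30 counts and in at most 2 otherwise. None of the 367 named called genes changed sign, and 355 to 366 stayed at least 2-fold apart. The cause of these shifts was not tested. No spread between cultures is available.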

Other observations

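By chromosome, chosen after the values were seen, the median log2 fold change in 2N cells was highest for the 446 measured genes of chromosome 12, at 0.25, where 82 rose (18.4%) and 26 fell (5.83%). It was lowest for the 422 genes of chromosome 19, at -0.26, where 51 rose and 76 fell. The remaining chromosomes lay between -0.12 (chromosome 11) and 0.13 (chromosome 6). In 4N and unsorted cells the medians were 0.12 and 0.09 for chromosome 12, and -0.13 and -0.19 for chromosome 19.

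Few genes of the lung lineage list were measured, 8 of 26. Of these, 3 rose and 0 fell in 2N cells. They were Ager, a marker of alveolar type 1 cells, from 33 to 205 counts, Hopx, which marks the same cells, from 73 to 432 counts, and the endoderm factor Foxa2 from 141 to 432 counts, all at low levels. Ager and Hopx reached the count minimum only in the CYC065 library. Of 13 measured Hox genes 4 rose (30.8%) and 0 fell, with a median of 0.84. Their median level in vehicle was 5.30 CPM of the library total. Of protein-coding genes in the quintile of lowest mean level (0.921 to 9.81 CPM), 26.1% rose, a share near that of the Hox genes. Of 16 integrin genes 6 rose and 1 fell, with Itgb8, which activates TGF-β, from 11.6 to 87.6 CPM and Itga3, a laminin receptor subunit, from 433 to 166 CPM. Of 22 collagen genes 6 rose (27.3%), Col11a2 from 0.812 to 8.01 CPM and Col11a1 from 1.71 to 9.63 CPM among them, and 2 fell (9.09%). Over all measured genes 13.0% rose and 11.1% fell.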
